A study of Mus musculus with 9 samples.

Results

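The 10 genes described here encode regulators of mesoderm and endoderm: Mixl1, Gsc, Foxa2, Foxa1, Sox17, Gata4, Gata6, Mesp1, Cer1 and Tbx6, out of 21883 protein-coding mouse genes in the RefSeq table for mm10. They were taken as a named list, and every ATAC-seq peak within 50 kb of each gene was collected from each library's peak list. ATAC-seq maps open chromatin through DNA cuts made by the Tn5 transposase. The libraries came from 3 lines of E14 mouse embryonic stem cells, all of a variant named TOT2N, with 3 libraries each. The TetR-MYBTA line carried a stably integrated TetR-MYBTA construct, the TetR line a stably integrated construct with TetR (the bacterial tetracycline repressor, a DNA-binding protein) alone, and the WT line neither. The study's title concerns sustained activity of the transcription factor MYB at enhancers. The labels do not state whether each line was 1 clone or whether its libraries are separate cultures, and p-values therefore cover no more than the spread between these libraries.

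In the gastrulating embryo, Nodal and Wnt signals switch on a layered set of transcription factors in the primitive streak, from which mesoderm and definitive endoderm arise. Mixl1 and Gsc are homeobox genes of the streak and its anterior end. Foxa2 and Foxa1 encode forkhead pioneer factors of endoderm, Sox17 an SRY-box factor of endoderm, and Gata4 and Gata6 zinc-finger factors of primitive endoderm and heart. Mesp1 encodes a basic helix-loop-helix factor of early cardiac mesoderm, Tbx6 a T-box factor of presomitic mesoderm, and Cer1 a secreted inhibitor of Nodal, BMP and Wnt. In undifferentiated embryonic stem cells such genes are mostly held silent, many of them under Polycomb marks, while enhancers around them can already be open.

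The peak lists were long enough to map the 10 loci but differed in length. They held 59675, 56917 and 45136 peaks in TetR-MYBTA libraries 1 to 3, 70230, 65957 and 58762 in TetR, and 56612, 63098 and 59575 in WT, from 16.4 to 23.0 M tags a library. The share of tags in peaks was 5.48 to 7.57% in TetR-MYBTA, 9.30 to 9.78% in TetR and 7.79 to 8.09% in WT. Joined where they overlapped by at least 1 bp, the peaks of the 9 lists gave 116362 regions, and 26020 of these were found in all 9 libraries. A region joined in this way can hold peaks that do not overlap one another. The lists carry no tag count or score that varies, so a region is described by presence and by the place of its peak in the list, as a percentile with 100 for the first row. Row order closely followed the peak numbers assigned by the peak caller (rank correlation at least 0.990). Some stretches of the lists also appeared to be in order of genome position. In TetR 1, rows 57240, 57413 and 57414 ran along chromosome 1, rows 57817 and 57818 lay on chromosome 4 and row 58298 on chromosome 7. Within such a stretch the place may follow position and not peak strength, which was not tested. Small differences in percentile, and cuts at a given row, carry this limit. A missing peak means only that no peak was called there, and in such bulk libraries fewer open cells and less open chromatin per cell cannot be told apart. Of 8 stem cell markers, 4 to 6 had a peak within 1 kb of a gene end in each library, as did 2 or 3 of 5 primitive endoderm markers (Pdgfra and Dab2 in no library) and 2 or 3 of 3 fibroblast markers. Stem cell genes such as Esrrb and Zfp42 had none, so gene-end peaks alone do not identify the cell type here.

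Promoters of Gsc, Foxa2, Foxa1, Mesp1, Cer1 and Tbx6, 6 of the 10 genes, were read from the RefSeq promoter table for GRCm38.p6, the assembly of mm10, with 250 bases before and 50 after each start. Of the 8 promoters matched, those of Gsc and Mesp1 were the ones a peak overlapped, and in each case in 1 line alone: the Gsc promoter in TetR libraries 1, 2 and 3, the Mesp1 promoter in WT library 2. They are shown with the most upstream of 3 Foxa2 promoters, which no peak overlapped although peaks lay on both sides of it, because these 3 loci held the regions private to TetR. Capitals mark matches to MYB motifs (TAACGG or TAACTG or CAACGG or CAACTG on either strand), and each sequence runs 5′ to 3′ on the gene's own strand.
Gsc, chr12:104473187-104473486, minus strand: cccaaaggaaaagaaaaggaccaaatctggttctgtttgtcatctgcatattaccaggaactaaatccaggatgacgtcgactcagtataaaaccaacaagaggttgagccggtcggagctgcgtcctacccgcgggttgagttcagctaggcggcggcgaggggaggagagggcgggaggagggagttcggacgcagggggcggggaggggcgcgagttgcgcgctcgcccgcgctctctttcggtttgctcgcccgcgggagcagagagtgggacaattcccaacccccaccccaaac
Mesp1, chr7:79793541-79793840, minus strand: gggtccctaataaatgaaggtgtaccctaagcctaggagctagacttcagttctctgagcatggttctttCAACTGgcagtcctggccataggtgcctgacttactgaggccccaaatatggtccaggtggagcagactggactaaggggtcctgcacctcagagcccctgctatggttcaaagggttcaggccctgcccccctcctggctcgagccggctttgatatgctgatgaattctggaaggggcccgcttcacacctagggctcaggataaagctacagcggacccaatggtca
Foxa2, chr2:148046920-148047219, minus strand: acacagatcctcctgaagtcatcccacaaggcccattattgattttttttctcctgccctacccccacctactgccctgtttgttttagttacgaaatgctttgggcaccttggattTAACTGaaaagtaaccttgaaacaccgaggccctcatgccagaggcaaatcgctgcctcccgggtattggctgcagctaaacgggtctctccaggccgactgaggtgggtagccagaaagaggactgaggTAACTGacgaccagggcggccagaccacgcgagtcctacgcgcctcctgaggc
The Gsc promoter was rich in G and C (60.3%) and held 25 CG dinucleotides, against a median of 52.7% and 7 over all 32851 promoters in the table. It held no match to the MYB motifs, and the Mesp1 promoter, with 4 CG dinucleotides, held 1. The Foxa2 promoter shown held 2 and the Tbx6 promoter 1, while the promoters of Foxa1 and Cer1 and the other 2 of Foxa2 held none. Such a match stood in 28.3% of all promoters of this length, so these matches are a description of the letters only. The Foxa1 promoter held 1 match to the FOXA motif TGTTTAC, found in 3.65% of promoters, lying between 2 overlapping matches to the SOX motifs ACAATG and ACAAAG, found in 28.6%. The GATA motifs AGATAA and TGATAA matched in the third Foxa2 promoter alone (18.6% of promoters), and no promoter of the 6 genes matched the FOXH1 motif AATNCACA, the homeobox motif TAATCC or the octamer ATGCAAAT, found in 3.60, 7.06 and 1.74% of promoters. The E-box CANNTG, in 72.3% of promoters, matched in those of Gsc, Foxa1, Mesp1 and Cer1 and in the third of Foxa2, and in Mesp1 1 of its 2 matches is the same stretch as the MYB match.

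Around the 10 genes there were 84 regions, and the gene ends themselves were mostly without a steady peak. Of the 84 regions, 21 (25%) had a peak in all 9 libraries, against 22.4% of all regions, and 12 had one in a single library. Just 8 lay within 1 kb of an end of one of the 10 genes, 7 inside one, 13 at an end of a neighbouring gene, 17 inside a neighbouring gene and 39 between genes. Of the 21 regions open in every library, 7 lay at ends of neighbouring genes (Acbd3, Neil2, Pex11a with Wdr93, Zdhhc21, Mapk3, Ypel3 and Ppp4c) and 9 between genes. With peaks joined at 1 bp of overlap, Mixl1 was the sole gene of the 10 with a gene-end region in all 9 libraries. This state was found in 39.3% of all protein-coding genes. Foxa1, Sox17 and Gata4 had no peak within 1 kb of either outer end of the gene in any library, as did 37.5% of all genes. The nearest regions to an end lay 1077 bp away for Sox17, inside the gene, 1337 bp for Foxa1 and 2834 bp for Gata4. Starts inside a gene were not counted as ends, so such a gene may still have an open start. The number of peaks within 50 kb was ordinary, with a median over the genes of 4.83 peaks per library, against 5 over the 20439 genes that had any.

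**Figure D1:**
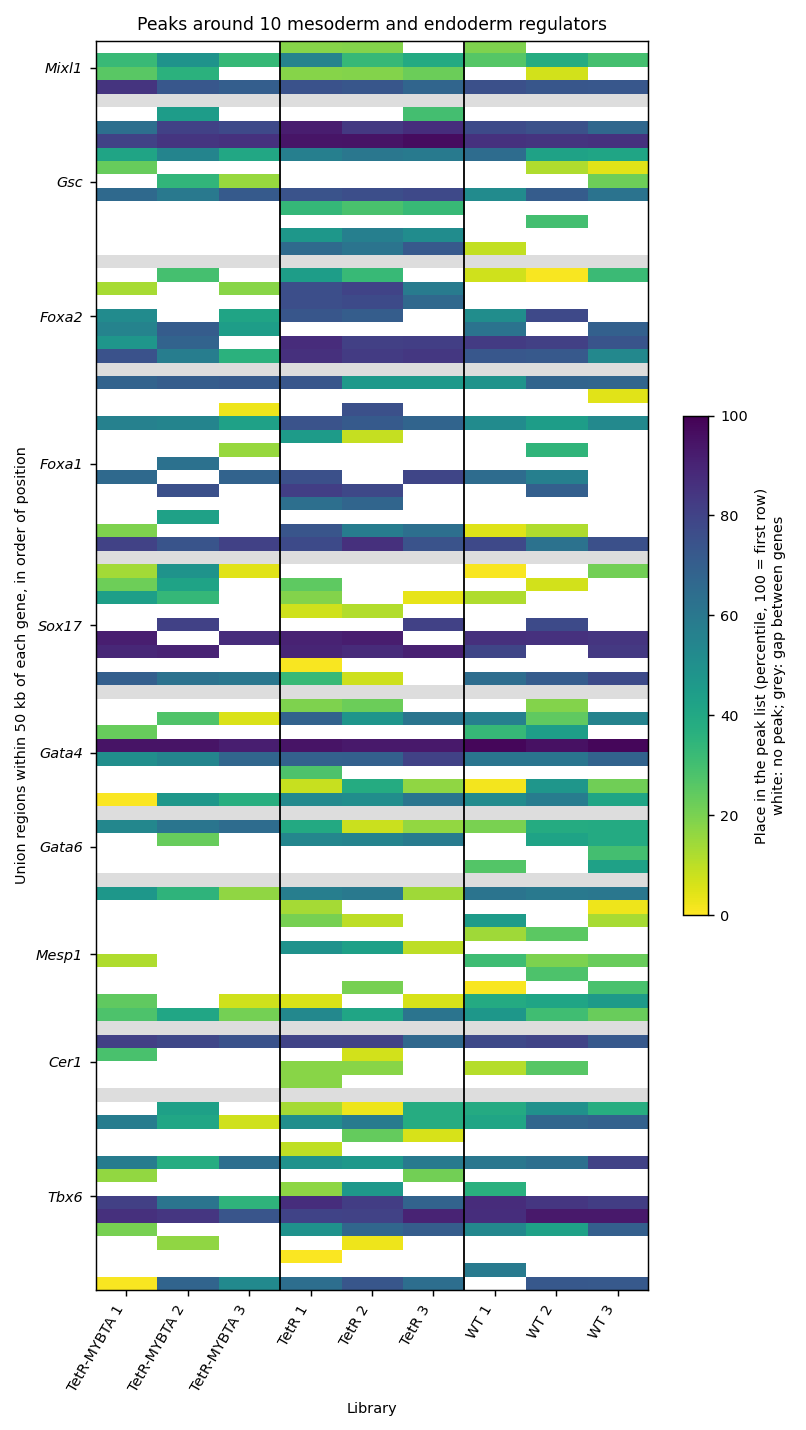
Each row is one of the 84 regions within 50 kb of the 10 genes, in order of position, and each column a library of TetR-MYBTA, TetR or WT; colour gives the place of the peak in its list (percentile, 100 for the first row), white no peak. The 21 fully coloured rows are the regions with a peak in all 9 libraries, and 4 rows, near Gsc, Foxa2 and Mesp1, are coloured in the 3 TetR libraries alone.

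The lines were compared region by region, counting regions with a peak in every library on one side and in none on the other. TetR-MYBTA had 0 regions of its own against the other 6 libraries (0.587% of all 116362 regions were of this kind) and lacked 1 that all 6 others had (1.16%). TetR had 4 regions that no other library had (1.34%) and lacked 0 (0.255%). WT had 0 of its own (0.571%) and lacked 0 (0.151%). Between pairs of lines, TetR-MYBTA had 2 regions that TetR lacked (1.4%) and lacked 6 that TetR had (4.43%). Against WT it had 0 that WT lacked (1.23%) and lacked 1 (2.79%). TetR had 5 that WT lacked (2.26%) and lacked 1 that WT had (1.37%). These comparisons share libraries and no test was made of the counts. As shares of the 84 regions, the 4 private to TetR were 4.76% and the 6 missing from TetR-MYBTA but in all TetR libraries 7.14%, both above the share over all regions. The lists of TetR 1 and TetR 2 were also the longest of the 9. With each list reduced to its first 45136 rows, the length of the shortest, TetR had 4 private regions near these genes, but not the same 4. The regions at the Gsc start and 2.5 kb from Mesp1 no longer qualified, as TetR peaks there lay beyond row 45136. Regions 34.8 kb from Gsc and 16.0 kb from Foxa1 took their place, where peaks of other lines were cut off. In these shortened lists 5 regions in place of 6 were in all TetR and no TetR-MYBTA libraries.

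Gsc, the homeobox gene of the embryonic organizer, showed the most regions of this kind. The gene lies at chr12:104471209-104473236 on the minus strand, with no other protein-coding gene within 50 kb and 11 regions around it. At its start, the region chr12:104473023-104473449 had a peak in TetR libraries 1, 2 and 3, at percentiles 33.2, 28.6 and 32.5, and in no TetR-MYBTA or WT library. The nearest TetR-MYBTA peak lay 19.7 kb away and the nearest WT peak 2.34 kb away. The TetR peaks here were not in 1 place: that of TetR 2 lay over the upstream side of the start, those of TetR 1 and TetR 3 mainly over the gene, and with at least 100 bp of overlap required they no longer formed 1 region in all 3 libraries. In the first 45136 rows of each list TetR 3 alone had a peak at the start. Upstream by 11.9 kb, the region chr12:104485185-104485447 was again in TetR alone, at percentiles 47.0, 56.7 and 51.4. Upstream by 34.8 kb, the region chr12:104508028-104508235 stood at 65.5, 61.5 and 72.1 in TetR, against 9.2 in WT 1 and no peak in WT 2, WT 3 or any TetR-MYBTA library. No TetR-MYBTA library had a peak in the upstream 50 kb, and WT libraries had 2 peaks there in all, counting 1 in WT 2 at 29.9, 2.5 kb from the gene.

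Downstream of Gsc there were 4 regions in all 9 libraries, at 44.0, 37.7, 30.8 and 17.8 kb, and 3 in some. Of these 3, the one at 27.2 kb was in TetR-MYBTA 1, WT 2 and WT 3 at 23.4, 11.9 and 4.6, and the one at 22.8 kb in TetR-MYBTA 2, TetR-MYBTA 3 and WT 3 at 34.3, 15.3 and 22.0. No TetR library had a peak in either. The one at 47.9 kb was in TetR-MYBTA 2 and TetR 3 at 44.9 and 29.8. The highest placed, chr12:104433243-104433518, stood at percentiles 80.2, 84.6 and 85.6 in TetR-MYBTA, 94.3, 94.8 and 96.6 in TetR, and 85.7, 84.9 and 85.8 in WT. The 3 TetR values were above all others, a difference of 10.7 between TetR and the other 6 libraries (exact permutation test, two-sided p = 0.0119, the smallest that 3 against 6 allows; Benjamini-Hochberg adjusted p over the 26020 regions in all 9 libraries 0.157). The regions at 44.0 and 17.8 kb were also higher in each TetR library than in the other 6, by 13.95 and 12.5 (adjusted exact p = 0.197 and 0.23), but overlapped them when the constant regions were ranked among themselves. Among all regions in 9 libraries, 11.2% were higher in this way and 4.4% lower. No region passed an adjusted p of 0.05 in this comparison. The total number of peaks within 50 kb was 5, 6 and 5 in TetR-MYBTA, 7, 7 and 8 in TetR, and 5, 6 and 6 in WT.

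Foxa2, the forkhead gene needed for node and endoderm, lies at chr2:148042877-148046969 on the minus strand, also with no other protein-coding gene within 50 kb, and had 7 regions. Its gene-end region, chr2:148046294-148046663, had a peak in 2 libraries of each line: at 51.6 and 41.7 in TetR-MYBTA 1 and 3, 73.4 and 70.4 in TetR 1 and 2, and 51.1 and 78.1 in WT 1 and 2. Downstream by 1.9 kb, the region chr2:148040780-148040992 was private to TetR and placed high, at 75.8, 77.5 and 66.4, and the nearest peak of TetR-MYBTA was 3.74 kb away and of WT 5.3 kb away. A region 5.8 kb downstream, chr2:148036805-148037061, was at 13.1 and 17.8 in TetR-MYBTA 1 and 3, at 75.8, 80.0 and 58.2 in TetR, and in no WT library. Upstream by 1.6 kb the pattern was the other way round. The region chr2:148048526-148048748 stood at 55.1, 70.9 and 44.4 in TetR-MYBTA and at 62.1 and 69.3 in WT 1 and WT 3, with no peak in any TetR library, whose nearest was 2.01 kb away.

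The region 35.4 kb upstream of Foxa2, chr2:148082367-148082580, was in all 9 libraries. Its percentiles were 74.8, 57.5 and 36.0 in TetR-MYBTA, 86.3, 82.6 and 83.7 in TetR, and 73.0, 72.1 and 53.5 in WT. TetR was 23.1 higher than the other 6 with no overlap (exact p = 0.0238, adjusted p = 0.197). A region 6.4 kb upstream was in 8 libraries, at 47.6 and 68.0 in TetR-MYBTA 1 and 2, 87.4, 81.0 and 81.6 in TetR and 82.5, 81.1 and 74.0 in WT. Both TetR-MYBTA values there were below those of TetR and WT. Counted over the whole window, Foxa2 had 5, 4 and 4 peaks in TetR-MYBTA, 6, 6 and 4 in TetR, and 5, 4 and 4 in WT, so neighbouring peaks differed between the lines while their number hardly did.

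**Figure D2:**
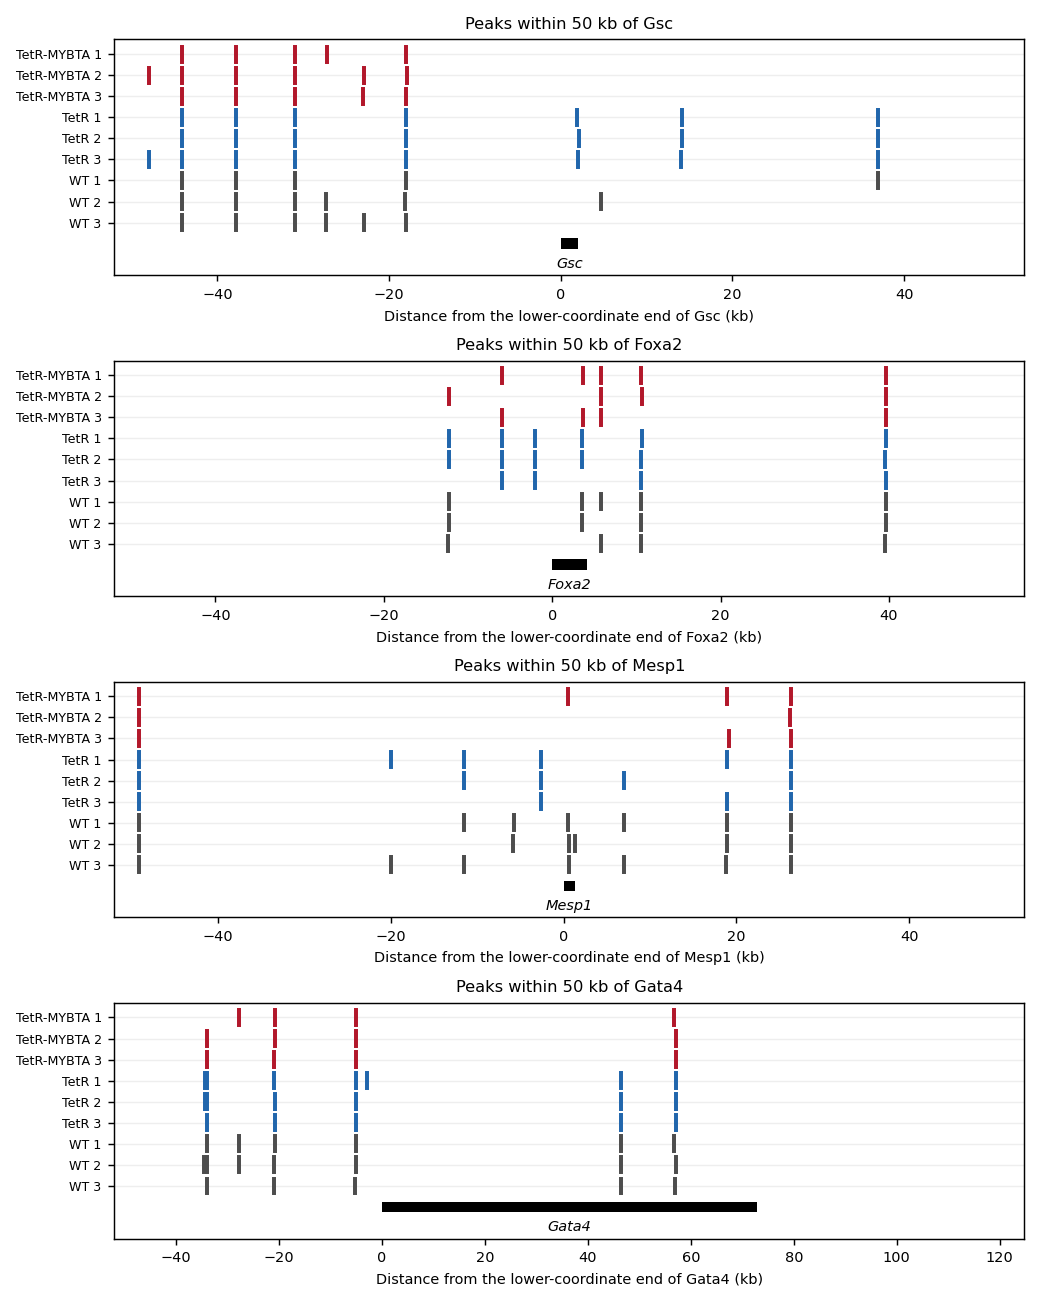
Peak positions (vertical ticks) in each library around Gsc, Foxa2, Mesp1 and Gata4, with TetR-MYBTA above TetR above WT; the horizontal axis is the distance in kb from the gene's lower-coordinate end and the black bar is the gene. Upstream of Gsc (to the right of its bar) the ticks are those of TetR apart from 1 each in WT 1 and WT 2, and inside Gata4 the left of the 2 positions has ticks in TetR and WT but none in TetR-MYBTA.

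Foxa1 lies at chr12:57540628-57548029 on the minus strand and overlaps Ttc6 in the annotation. It had 13 regions, 3 of them in all 9 libraries. The region 24.3 kb downstream, chr12:57515857-57516295, was at 55.9, 55.0 and 42.9 in TetR-MYBTA, 74.3, 71.5 and 67.9 in TetR, and 51.8, 44.2 and 52.8 in WT. TetR was 20.8 higher than the other 6 without overlap (exact p = 0.0119, adjusted p = 0.157). The peaks of TetR-MYBTA 2 and TetR 3 did not overlap those of TetR-MYBTA 1, TetR-MYBTA 3, TetR 1, TetR 2 or WT 1. The percentiles compared are therefore not all of 1 position. A region 16.0 kb from the gene on the other side, chr12:57563992-57564239, was at 19.5 in TetR-MYBTA 1, at 73.7, 58.0 and 63.5 in TetR, and at 5.0 and 11.9 in WT 1 and WT 2. The highest placed of the constant regions, chr12:57575985-57576243 inside Ttc6, ranged from 74.1 to 80.7 in TetR-MYBTA, 74.3 to 86.2 in TetR and 62.3 to 77.7 in WT, and these ranges overlapped. Over the gene itself there was a peak in TetR-MYBTA 2, TetR 1, TetR 2 and WT 2, while 6 libraries had one 1.3 kb downstream, and WT 3 had neither. The window held 5, 6 and 6 peaks in TetR-MYBTA, 8, 8 and 5 in TetR, and 5, 7 and 4 in WT.

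Sox17, at chr1:4490928-4497426, carried the highest placed peaks over any of the 10 genes, and did so in every library. The best peak over the gene was at 91.6, 90.2 and 87.2 in TetR-MYBTA, 90.3, 92.0 and 90.7 in TetR, and 86.3, 85.7 and 84.4 in WT. All 3 WT values were the lowest of the 9. No region of the locus was in all 9 libraries, since the peaks fell at 3 positions inside the gene, chr1:4492005-4492215 in 3 libraries, chr1:4492919-4493133 in 7 and chr1:4493362-4493726 in 7. The peak caller kept peaks of a list at least 386 to 416 bp apart, so not every summit of a wide open stretch could be listed, and presence by region understates how alike the libraries were here. Further away, chr1:4448071-4448323 was in all TetR-MYBTA libraries at 13.9, 48.6 and 4.5, in no TetR library, and in WT 1 and WT 3 at 1.1 and 21.2. The region chr1:4544053-4544390 stood at 69.8, 62.2 and 60.2 in TetR-MYBTA, at 32.5 and 7.6 in TetR 1 and 2 with none in TetR 3, and at 64.4, 70.9 and 77.4 in WT.

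Gata4, at chr14:63198914-63271712, held the sole region near the 10 genes that was missing from TetR-MYBTA and present in all other libraries. This region, chr14:63245219-63245493 inside the gene, stood at 8.3, 38.3 and 16.8 in TetR and at 1.7, 47.3 and 21.8 in WT. The nearest TetR-MYBTA peak was 10.1 kb away. The low percentiles of TetR 1 and WT 1 place it near the end of those lists, and when each list was cut to its upper 50% it was no longer a region of this kind. In the first 45136 rows of each list it had a peak in TetR 2 and WT 2 alone. The region of this kind in those shortened lists lay 23.5 kb from Tbx6, where the TetR-MYBTA 1 peak was cut off. A second region inside the gene, chr14:63255578-63256185, was in all 9 libraries, at 0.60, 47.0 and 37.1 in TetR-MYBTA, 52.8, 51.2 and 61.2 in TetR, and 51.6, 58.1 and 41.2 in WT. These peaks were not all in 1 place. Those of TetR-MYBTA 1 and WT 1 overlapped none of the TetR, TetR-MYBTA 2, TetR-MYBTA 3 or WT 2 peaks and were joined to them through WT 3. The window held 4 peaks in each TetR-MYBTA library, 7, 6 and 5 in TetR, and 6, 7 and 5 in WT. As a share this was 7.53 ± 1.16 per 100000 peaks in TetR-MYBTA (SD, n = 3) and 9.61 ± 1.12 in the other 6 libraries, a difference of −2.08 (exact p = 0.0476, adjusted p over 20439 genes 0.204), and the groups overlapped. The most highly placed region of the window lay in the neighbouring gene Fdft1, at chr14:63177914-63178151, with 91.6 to 94.8 in TetR-MYBTA, 93.1 to 94.9 in TetR and 95.4 to 98.4 in WT.

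Gata6, at chr18:11052510-11085636, had 4 regions, the fewest along with Mixl1 and Cer1. Its gene-end region, chr18:11052373-11052704, was at 23.3 in TetR-MYBTA 2, at 54.1, 55.2 and 58.5 in TetR, and at 42.1 and 38.9 in WT 2 and WT 3. The TetR libraries were above all others, and 2 TetR-MYBTA libraries and WT 1 had no peak there. A region 12.2 kb away, chr18:11040023-11040274, was in all 9 libraries and ran in the opposite direction. It stood at 53.9, 60.9 and 64.5 in TetR-MYBTA, 39.2, 8.0 and 16.2 in TetR, and 19.9, 38.4 and 38.9 in WT. TetR-MYBTA averaged 59.8 ± 5.39 (SD, n = 3), against 26.8 ± 13.8 in the other 6 libraries, a difference of 33.0 without overlap (exact p = 0.0238, adjusted p over 26020 regions 0.105). By place in the whole list it was the only one of the 21 constant regions higher in all TetR-MYBTA libraries, where 7.31% of all such regions were, and 0 of the 21 were lower, where 13.6% were. Ranked among themselves, 2 of the 21 were higher (11.7% of all such regions), this one and the Zdhhc21 end near Cer1, and 0 lower (8.92%). In that comparison 0 of 26020 regions reached an adjusted p of 0.05 by this permutation test, while 8228 had an unadjusted p under 0.05.

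**Figure D3:**
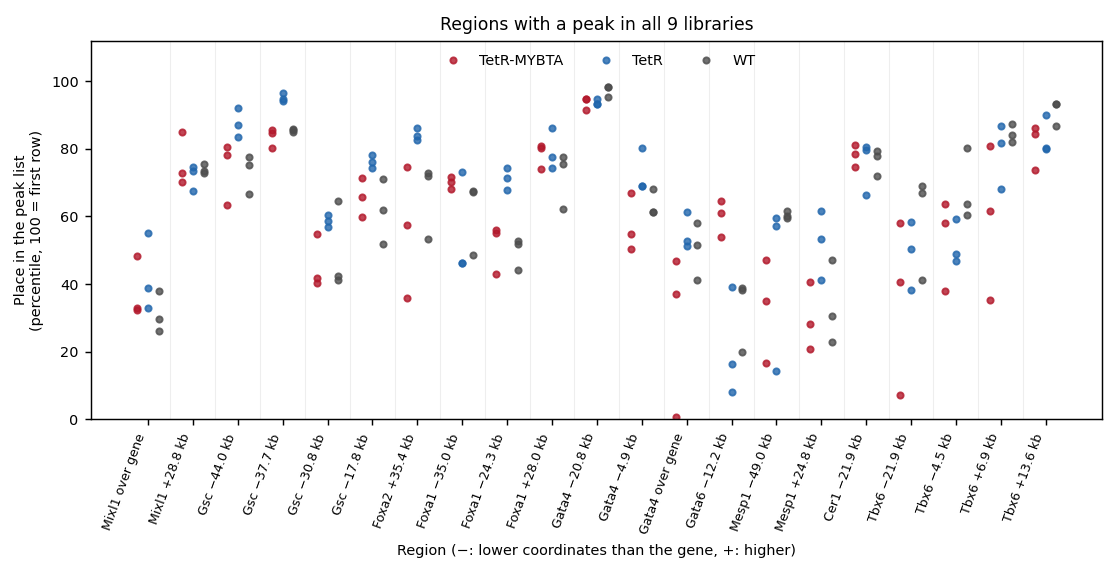
Place in the peak list (percentile, 100 for the first row) of the 21 regions with a peak in all 9 libraries, 1 point per library, TetR-MYBTA left, TetR middle and WT right within each region; labels give the gene and the distance in kb towards lower (−) or higher (+) coordinates. TetR points lie above the other 6 at 3 Gsc regions, at the Foxa2 region 35.4 kb, the Foxa1 region 24.3 kb and the Gata4 region 4.9 kb from the gene, and TetR-MYBTA points lie above the other 6 at the Gata6 region.

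Mesp1, the cardiac mesoderm regulator, was the gene of the 10 whose share of peaks differed most between TetR-MYBTA and the other 6 libraries. It lies at chr7:79792241-79793590 on the minus strand, near Mesp2, Wdr93, Pex11a and Anpep. Its window held 4, 2 and 3 peaks in TetR-MYBTA, 6, 5 and 4 in TetR, and 7, 6 and 7 in WT. Per 100000 peaks of the library this was 6.70, 3.51 and 6.65 in TetR-MYBTA, 8.54, 7.58 and 6.81 in TetR, and 12.4, 9.51 and 11.7 in WT. The lines did not overlap in any pair. TetR-MYBTA averaged 5.62 ± 1.83 (SD, n = 3), against 9.43 ± 2.24 in the other 6, a difference of −3.80 (exact p = 0.0357, adjusted p over 20439 genes 0.181). Among all genes 10.2% were lower in TetR-MYBTA without overlap and 4.47% higher, and 0 reached an adjusted p of 0.05, with 4782 (23.4%) at an unadjusted p under 0.05. In pairs of lines, where the exact test of 3 against 3 cannot go below p = 0.1, the difference was −2.02 for TetR-MYBTA against TetR (17.8% of genes lower without overlap), −5.59 for TetR-MYBTA against WT (20% lower and 7.83% higher) and −3.56 for TetR against WT (11.4%). WT alone against the other 6 libraries was higher by 4.58 (exact p = 0.0119, adjusted p = 0.269, 5.49% of genes). With lists of equal length Mesp1 no longer separated TetR-MYBTA from the other 6, and the difference from TetR turned to 0.739.

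Regions of Mesp1 differed between the lines at the gene itself. The gene-end region chr7:79792645-79792943 had a peak in WT 1, 2 and 3 at percentiles 31.2, 19.6 and 22.9, in TetR-MYBTA 1 at 11.8, and in no TetR library. WT 2 had a further peak at 28.0 over the promoter. Downstream by 2.5 kb, chr7:79789476-79789772 was private to TetR, at 49.0, 43.1 and 10.1, and the nearest TetR-MYBTA and WT peaks lay 2.87 and 2.92 kb from it. In the first 45136 rows of each list this region had a peak in TetR 1 and TetR 2 alone. The gene-end region chr7:79792645-79792943 then had one in WT 1 alone. At the end of the related gene Mesp2, 17.4 kb upstream, a region was in 2 TetR-MYBTA libraries at 24.4 and 7.2, in 2 TetR libraries at 5.7 and 6.0, and in all WT libraries at 38.9, 41.2 and 45.4. The 3 WT values were the highest there. The sequence of the Mesp1 promoter given above is the stretch that the second peak of WT 2 overlapped.

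Tbx6, at chr7:126781483-126785548 on the plus strand, sits among 7 protein-coding genes within 50 kb and had 14 regions, the most of the 10. No library had a peak over the gene body. Its gene-end region, chr7:126780675-126780941, is also at an end of Ypel3 and was at 17.0 and 46.7 in TetR 1 and 2 and 36.4 in WT 1, with none in TetR-MYBTA. The window held 7, 7 and 5 peaks in TetR-MYBTA, 10, 10 and 9 in TetR, and 8, 7 and 7 in WT. The share averaged 11.7 ± 0.61 per 100000 peaks in TetR-MYBTA, 14.9 ± 0.58 in TetR, against 12.3 ± 1.60 in WT (SD over 3 libraries each). TetR was higher than the other 6 libraries by 2.89 (exact p = 0.0119, adjusted p = 0.298, 4.26% of genes higher without overlap and 2.63% lower). The difference was −3.20 for TetR-MYBTA against TetR and 2.58 for TetR against WT (exact p = 0.1 each, 8.57% of genes higher in TetR than WT). The difference between TetR and WT turned to −1.48 with lists of equal length. All 4 of its constant regions lay at or in neighbouring genes, the highest placed in Aldoa at 73.6 to 86.2 in TetR-MYBTA, 80.1 to 90.1 in TetR, against 86.8 to 93.3 in WT.

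**Figure D4:**
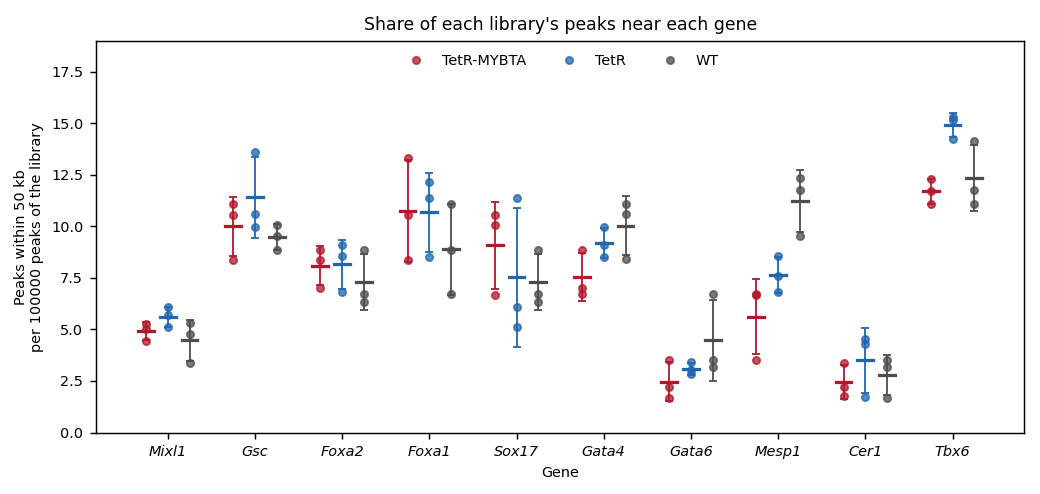
Peaks within 50 kb of each gene per 100000 peaks of the library, with 1 point per library and the mean and SD of the 3 libraries of TetR-MYBTA, TetR and WT. The 3 lines lie apart at Mesp1, with TetR-MYBTA at 3.51 to 6.70 and WT at 9.51 to 12.4, and the TetR points at Tbx6 lie above all others.

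No region near Mixl1 or Cer1 had a peak in every library of one line and in none of another. In the full lists this also held for Foxa1, Gata6 and Tbx6. Mixl1, at chr1:180693043-180697034, had its gene-end region chr1:180696586-180697098 in every library, at 32.4, 48.4 and 33.1 in TetR-MYBTA, 55.2, 32.9 and 38.9 in TetR, and 26.2, 38.1 and 29.5 in WT, and these values overlapped. The peaks there were not all in 1 place. Those of TetR-MYBTA 1, TetR 1 and WT 1 did not overlap those of TetR-MYBTA 3, TetR 3 or WT 2. With at least 100 bp of overlap required, Mixl1 no longer had a gene-end region in all TetR-MYBTA libraries. The highest placed region of its window was at the end of Acbd3, at 70.1 to 84.9 in TetR-MYBTA, 67.5 to 74.7 in TetR and 72.8 to 75.6 in WT. Its share of peaks was 4.91 ± 0.43 per 100000 in TetR-MYBTA and 5.05 ± 0.94 over TetR and WT together (exact p = 0.833). The gene lies in a stretch of chromosome 1 where TetR-MYBTA lists held more peaks as a whole. Within 5 Mb of Mixl1 lay 0.676 to 0.693% of the peaks of TetR-MYBTA libraries, 0.534 to 0.539% of those of TetR and 0.553 to 0.567% of those of WT, while the counts in the Mixl1 window, 3, 3 and 2 in TetR-MYBTA, 4, 4 and 3 in TetR, and 3, 3 and 2 in WT, overlapped. Cer1, at chr4:82881751-82885151 on the minus strand, had 2, 1 and 1 peaks in its window in TetR-MYBTA, 3, 3 and 1 in TetR, and 2, 2 and 1 in WT. Its gene-end region had a peak in TetR-MYBTA 1 at 28.6 and in TetR 2 at 6.6 only. The one constant region of the Cer1 window was at the end of Zdhhc21, at 74.6 to 81.0 in TetR-MYBTA, 66.3 to 80.5 in TetR and 72.1 to 79.4 in WT. By place in the whole list the lines overlapped there. Ranked among the constant regions, it averaged 59.9 ± 1.54 in TetR-MYBTA (SD, n = 3) and 51.1 ± 7.63 over TetR and WT together, without overlap (exact p = 0.0833, adjusted p = 0.223).

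Over the 10 genes together the lists held 42, 41 and 34 peaks in TetR-MYBTA, 61, 55 and 44 in TetR, and 48, 48 and 44 in WT, counting each window. Per 100000 peaks this was 70.4 to 75.3 in TetR-MYBTA, 74.9 to 86.9 in TetR and 73.9 to 84.8 in WT, so the lines overlapped once list length was taken out, TetR-MYBTA with both of the others. By gene ends, 1 of the 10 genes had a gene-end region in all 3 TetR-MYBTA libraries (43.2% of all genes), 3 in all TetR libraries (Mixl1, Gsc and Gata6; 49.4%) and 2 in all WT libraries (Mixl1 and Mesp1; 49.2%). Places in lists of different length are not on 1 footing, so the 26020 constant regions were also ranked among themselves. By place in the whole list, 1 of the 21 constant regions was higher and 9 lower in TetR-MYBTA than in TetR without overlap (12.7% and 27% of all such regions), against 3 and 3 when ranked among themselves (19.7% and 19.5%). For TetR-MYBTA against WT the counts were 2 higher and 4 lower by the whole list (14.2% and 26.1%) and 4 and 4 among themselves (20.2% and 21.5%). For TetR against WT they were 6 and 2 (20.6% and 16.4%), then 5 and 2 among themselves (18.5% and 19.7%). Against the other 6 libraries, TetR was higher at 6 and lower at 0 of the 21 by the whole list (11.2% and 4.4%), the sixth being the Neil2 end near Gata4 (12.2 higher, adjusted exact p = 0.23). Ranked among themselves, 3 of these 6 still lay above the other 6 libraries, the Gsc region at 37.7 kb, the Foxa2 region and the Foxa1 region, and 1, at Acbd3 near Mixl1, lay below (8.56% higher and 7.01% lower over all such regions).

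The other genes of the pathway, 44 in all from Nodal ligands to mesoderm and endoderm factors, were counted in the same way. A gene-end region in all 9 libraries was found in 13 of the 44 (39.3% of all genes), and 11 had no gene-end peak in any library (37.5%). Among the receptors and signal carriers, Acvr1b, Acvr2a, Acvr2b, Foxh1, Smad2 and Smad4 had gene-end peaks in all 9 libraries, whereas Nodal had one in 1 library and Lefty2 in none. Smad3 had one in 8 libraries, Lefty1 in 5, Gdf3 and Bmp4 in 4, Fgf8 in 3 and Tdgf1 in 2, and Wnt3 in all 9. Their share of peaks within 50 kb was higher without overlap in TetR-MYBTA than in the other 6 libraries in 0 of the 44 (4.47% of all genes) and lower in 2, Sox7 and Snai1 (10.2%). It was higher in 4 and lower in 8 against TetR (10.1% and 17.8% of all genes), and higher in 1 and lower in 8 against WT (7.83% and 20%). No gene of the list passed an adjusted p of 0.05, and the median difference between TetR-MYBTA and the other 6 was −0.31 per 100000 peaks over the list and −0.39 over all genes. Wnt3a, a Wnt ligand of the streak and tail bud, was the one gene of this list with a gene-end region that separated lines: chr11:59290970-59291253 had no peak in TetR-MYBTA or TetR and was at 9.46, 15.7 and 12.3 in WT. All 3 WT peaks lay beyond the first 45136 rows of their lists. Of all regions, wherever placed, 0.571% were in every WT library and in no other.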

How the data were processed

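Each library had its own HOMER peak calling without a control, per the file headers, requiring a false discovery rate of 0.001, 4 times the tags of the 10 kb around and a local p-value of 0.0001, at 1 tag per position. The submitters' processing notes name Trim Galore 0.6.10, Bowtie2, Picard, deepTools 3.5.5, HOMER 4.11 and mm10. No label or header says whether reads were shifted for the Tn5 offset. The deposited score is 1 in every row, so row order gave the percentile. Windows reached 50 kb from the RefSeq gene and gene ends 1 kb. Shares within 50 kb were tested for all 20439 genes with peaks, and percentiles for all 26020 regions in 9 libraries, with exact two-sided permutation tests on differences between means, Benjamini-Hochberg adjusted over all of them. The tests were checked on simulated data. Members, lists, motifs and settings were chosen with earlier results of these data known. All 10 genes were described in every comparison; regions were named at gene ends, where lines separated, or where placed highest among constant ones, and others after their values were seen. Comparisons of TetR or WT with the other 6 libraries, and ranking of the regions in all 9 libraries among themselves, were added after seeing the data. The labels give no batch. Scripts ran in Python 3.11.15 with scipy 1.17.1, numpy 2.4.6, matplotlib 3.10.9 and pandas 2.3.3.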

Additional observations from a re-analysis of the deposited data

How the results depend on the processing

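Alternatives were equal list lengths, each list's upper 50%, at least 100 bp of overlap, merging of peaks up to 200 bp apart, presence in 2 of 3 libraries, no peak within 1 kb for absence, windows of 10 or 100 kb, gene ends within 2.5 kb, other denominators, and leaving out each library. In counts of regions, the upper 50% gave TetR-MYBTA 1 private region and 0 missing ones against the other 6, 1 private against WT, and TetR 1 missing. Presence in 2 of 3 libraries gave TetR-MYBTA 4 missing against the other 6, 15 against TetR, and 1 private and 6 missing against WT. It gave TetR 9 private and 7 missing against WT and 8 private and 3 missing against the other 6, and WT 2 private and 1 missing. The 100-kb window gave TetR-MYBTA 3 missing against the other 6 and 7 against WT, TetR 2 missing against WT, and WT 1 private. The 10-kb window gave 1 private to TetR-MYBTA against TetR. Equal lists gave TetR 2 missing against WT and 1 against the other 6. Genes with a steady gene end with 100 bp of overlap numbered 0 in TetR-MYBTA, 1 in TetR, and 1 for WT, 2 in TetR-MYBTA and 6 in TetR at 2.5 kb, and 1 in WT with equal lists. Gsc was no longer among those of TetR with equal lists. Genes with a lower share in TetR-MYBTA without overlap numbered 0 with equal lists, and 0 with the same chromosome or 5 Mb as denominator, and 2 in the upper 50%.

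Leaving out 1 library gave, for TetR-MYBTA against the other 6, 0 private and 1 to 2 missing regions (2 without TetR-MYBTA 1 or 2). Against TetR it gave 2 to 3 private and 6 to 13 missing (13 without TetR 3), and against WT 0 to 1 private (1 without TetR-MYBTA 2) and 1 to 4 missing (4 without WT 2, 3 without TetR-MYBTA 1, TetR-MYBTA 2 or WT 3). TetR had 5 to 7 private and 1 to 4 missing against WT (2, 4 and 3 without WT 1, 2 and 3), and 4 to 6 private and 0 to 2 missing against the other 6 (2 without WT 2). WT had 0 to 1 private (1 without WT 2, WT 3 or TetR-MYBTA 1) and 0 to 1 missing (1 without TetR-MYBTA 2). Steady gene ends numbered 1 to 2 in TetR-MYBTA (2 without TetR-MYBTA 2), 3 to 5 in TetR (5 without TetR 3) and 2 to 3 in WT. Lower shares numbered 1 to 2 (2 without TetR-MYBTA 2 or 3) and higher ones 0.

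Differences in share between TetR-MYBTA and the other 6 changed sign for these genes, in peaks per 100000, and the cause was not tested. Mixl1 had 1.48 with equal lists, 0.271 at 10 kb, 2.51 at 100 kb and 0.067 in the upper 50%. Gsc had 3.51 per 100000 peaks of its chromosome and 392 of those within 5 Mb. Foxa2 had −1.11 with equal lists, −1.30 at 100 kb, −0.5 as a number of peaks and −5.92 in the upper 50%. Foxa1 had −0.369 with equal lists, −0.770 at 100 kb and −0.5 as a number of peaks. Sox17 had −0.197 at 10 kb and −8.30 by chromosome, and Gata4 had 119.8 within 5 Mb. Gata6 had 2.22 in the upper 50%, and Cer1 had 0.739 with equal lists, 0.306 at 10 kb and 0.542 in the upper 50%. Tbx6 had 0.032 at 10 kb and 593 within 5 Mb. Between TetR-MYBTA and TetR, Mesp1 had 0.739 with equal lists and Tbx6 191.6 within 5 Mb. Between TetR and WT, Tbx6 had −1.48 with equal lists and −3.36 in the upper 50%, and Mesp1 had 0.691 in the upper 50%. Leaving out 1 library gave −0.474 to 0.103 for Mixl1, −0.974 to 0.375 for Gsc, −0.0189 to 0.898 for Foxa2 and −0.318 to 2.14 for Foxa1. No alternative gave any gene an adjusted p under 0.05.

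Libraries with the same replicate number did not deviate together (correlations −0.00594 to 0.00714 over 60081 regions, 2 of 9 libraries correlating best with their own number). Pairing by number is not excluded by this, and the labels do not say what the numbers mean. With the replicate number as a block, 1 gene, Mesp1, again had a lower share in TetR-MYBTA without overlap (exact p = 0.0741, adjusted p = 0.267), and 0 were higher. Presence without tag counts limits these comparisons, most of all in TetR-MYBTA 3, whose list was the shortest.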
